A study of Mus musculus with 9 samples.

Results

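Open chromatin was mapped by ATAC-seq around 10 genes for transcription factors of the mesenchyme and of the epithelial-mesenchymal transition (EMT): Twist1, Twist2, Prrx1, Prrx2, Snai1, Snai2, Zeb1, Zeb2, Meox1 and Meox2. They are 10 of the 22367 protein-coding genes of the mouse annotation, chosen by name, by a rule that uses no measured value, though with earlier results of these data known. Each locus was the gene body with 50 kb on each side in mm9, and a peak belonged to it when its midpoint lay in that window. A peak within 1 kb of a transcription start site (TSS) of the member was its promoter peak, and a peak over 1 kb from every annotated TSS was distal. The 9 peak lists came from GFP positive, DAPI negative cells sorted at E9.5 from pooled Swiss Webster embryos, with 3 libraries per group. In Tbx1-Cre Ctrl embryos (Tbx1Cre;Rosa26-GFPflox/+), Cre expressed from the Tbx1 locus switches on the GFP reporter, so these controls are themselves heterozygous for a knock-in at Tbx1. Tbx1-Cre cKO embryos (Tbx1Cre/flox;Rosa26-GFPflox/+) carry the same Cre allele over a floxed Tbx1 allele. In Mesp1-Cre Ctrl embryos (Mesp1Cre;Rosa26-GFPflox/+), Cre is expressed from the Mesp1 locus, which marks mesoderm, while the Tbx1 lineage also holds endoderm and ectoderm. The labels give pharyngeal apparatus and heart as the tissue of the Mesp1-Cre libraries and add the back for both Tbx1-Cre groups, so the Cre line and the dissected tissue cannot be told apart. The methods of the study, unlike these labels, describe a dissection that left out the heart.

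During EMT, epithelial cells give up their junctions and become migratory mesenchyme. Snai1, Snai2, Zeb1 and Zeb2 encode zinc finger repressors that bind E-boxes of epithelial genes such as Cdh1. Twist1 and Twist2 encode basic helix-loop-helix factors that bind E-boxes together with E-proteins. Prrx1 and Prrx2 encode paired-related homeodomain factors of craniofacial and limb mesenchyme, and Meox1 and Meox2 encode homeodomain factors of the somites. In the pharyngeal apparatus, these genes act in head mesoderm, in neural crest mesenchyme and in the somites behind it.

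The distal sequences on which the comparisons below turn are shown first, as 300 bases around the midpoint of the region merged over the 9 lists, on the plus strand of mm9. Distances downstream are counted from the most upstream TSS of the gene. The first 4 had a peak in all 3 Tbx1-Cre Ctrl libraries and in no cKO library. Of these, the Prrx1 region had no Mesp1-Cre peak either, and the Snai2 and Zeb2 regions had a peak in all 3 Mesp1-Cre Ctrl libraries. The last, at Meox1, had a peak in all 9 libraries and is shown as a region that every library shared. Capitals mark E-boxes (CANNTG), the T-box half-site AGGTGTG and the homeodomain core TAATTA, each searched on both strands, and a match in these letters is a description and not a bound site.
Prrx1 12.8 kb downstream of the TSS, chr1:165230893-165231192: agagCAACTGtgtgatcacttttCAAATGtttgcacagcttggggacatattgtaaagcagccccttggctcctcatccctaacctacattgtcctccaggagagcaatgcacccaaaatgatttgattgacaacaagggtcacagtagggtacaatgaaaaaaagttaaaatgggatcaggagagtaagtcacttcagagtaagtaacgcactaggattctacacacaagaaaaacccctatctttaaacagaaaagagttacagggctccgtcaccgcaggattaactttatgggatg
Snai2 6.155 kb downstream of the TSS, chr16:14711951-14712250: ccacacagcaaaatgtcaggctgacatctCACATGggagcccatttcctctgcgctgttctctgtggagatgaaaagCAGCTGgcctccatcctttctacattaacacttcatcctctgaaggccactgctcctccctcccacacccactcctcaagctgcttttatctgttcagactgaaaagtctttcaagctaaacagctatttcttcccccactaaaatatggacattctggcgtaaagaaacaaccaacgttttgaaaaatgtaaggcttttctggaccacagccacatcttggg
Zeb2 72.3 kb downstream of the TSS, chr2:44900433-44900732: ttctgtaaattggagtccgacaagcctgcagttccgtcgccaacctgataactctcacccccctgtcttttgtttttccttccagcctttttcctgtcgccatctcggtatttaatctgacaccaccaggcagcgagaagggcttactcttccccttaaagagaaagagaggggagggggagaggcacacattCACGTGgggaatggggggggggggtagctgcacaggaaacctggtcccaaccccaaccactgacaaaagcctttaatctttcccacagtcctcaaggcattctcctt
Zeb2 140.7 kb downstream of the TSS, chr2:44832041-44832340: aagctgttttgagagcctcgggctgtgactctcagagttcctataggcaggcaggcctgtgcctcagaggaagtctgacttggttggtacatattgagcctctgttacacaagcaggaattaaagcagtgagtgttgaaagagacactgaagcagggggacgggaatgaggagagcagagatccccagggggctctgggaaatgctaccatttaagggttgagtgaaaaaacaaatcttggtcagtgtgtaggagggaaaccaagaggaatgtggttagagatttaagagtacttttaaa
Meox1 2578 bp upstream of the TSS, chr11:101758116-101758415: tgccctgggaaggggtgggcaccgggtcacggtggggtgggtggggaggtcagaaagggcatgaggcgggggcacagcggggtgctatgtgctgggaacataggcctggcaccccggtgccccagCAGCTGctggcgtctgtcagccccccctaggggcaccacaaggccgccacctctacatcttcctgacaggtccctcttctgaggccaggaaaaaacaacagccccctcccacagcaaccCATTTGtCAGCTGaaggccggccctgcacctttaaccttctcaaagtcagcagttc

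The share of regions with these letters was set against the whole series. Among the 38 distal regions of the loci with a peak in at least 3 libraries, 81.6% held CANNTG, against 81.1% of 24323 such regions of the whole series cut to the same length. The form CACCTG preferred by Snai and Zeb proteins, which is one case of CANNTG, stood in 13.2% against 15.7%, AGGTGTG in 2.63% against 4.17% and TAATTA in 2.63% against 5.79%. Of the regions printed above, the Zeb2 region 140.7 kb from the TSS held none of these letters. The median GC content was 55.5% at the loci and 51.3% over all such regions.

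The lists differed in length, and this bears on every count. The Tbx1-Cre Ctrl lists held 43298 to 49490 peaks, the cKO lists 19772 to 29251 and the Mesp1-Cre Ctrl lists 25485 to 42650. The length of 42650 peaks, that of Mesp1-Cre Ctrl replicate 1, is not among those that the study tabulates, while the other lengths are. Distal peaks of the whole list were 35.6% of the Tbx1-Cre Ctrl mean in cKO lists and 59.8% in Mesp1-Cre lists, while peaks near a TSS stood at 83.2% and 90.6%. The lists hold no reads or scores, so the depth behind each list is unknown, and a region without a listed peak is not shown to be closed. In bulk libraries, fewer cells of a type and less open chromatin per cell cannot be told apart. At Tbx1 itself, the number of promoter peaks was 1, 1 and 2 in Tbx1-Cre Ctrl, 0 in all 3 cKO libraries, with 1, 1 and 0 in Mesp1-Cre Ctrl. Of 10 markers of pharyngeal and cardiac mesoderm, 8 had a promoter peak in all 3 Tbx1-Cre Ctrl libraries. Each of the other groups had 4 such markers. Counting a peak in any library, the numbers were 9, 7 and 10, with Tbx1-Cre Ctrl first, cKO second and Mesp1-Cre Ctrl last. Of 10 epithelial and endodermal markers, 7, 3 and 5 had a promoter peak in any library of these groups, in that order. Counting a peak in all 3 libraries, the numbers were 0, 1 and 0. Cdh1 had a promoter peak in 2 Tbx1-Cre Ctrl, 0 cKO and 1 Mesp1-Cre Ctrl libraries. Of 5 neural crest markers, Sox10, Foxd3 and Tfap2b had no promoter peak in any library, Tfap2a had one in 3, 1 and 0 libraries of the groups in the same order, and Ets1 had one in all 9 libraries.

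Promoters of most members were open in every library. Twist1, Twist2, Snai1, Snai2, Zeb1 and Meox2 had a promoter peak in 9 of 9 libraries, which 48.6% of all protein-coding genes had. Prrx1 and Zeb2 had one in 8 libraries, and the library without it was cKO replicate 3 in both cases, the shortest of the 9 lists. For Zeb2 this pools several TSS. In the region of its most upstream TSS, all 3 libraries of each control group had a peak and only cKO replicate 2 did among cKO. The cKO replicate 1 peak lay in a promoter region 7.09 kb inside the gene. Prrx2 and Meox1 had almost none. A Prrx2 promoter peak was listed only in Mesp1-Cre Ctrl replicate 1 and a Meox1 promoter peak only in Tbx1-Cre Ctrl replicate 1. Both genes had distal peaks in all 9 libraries all the same, and Meox1 had one just upstream of its promoter in every list.

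**Figure D1:**
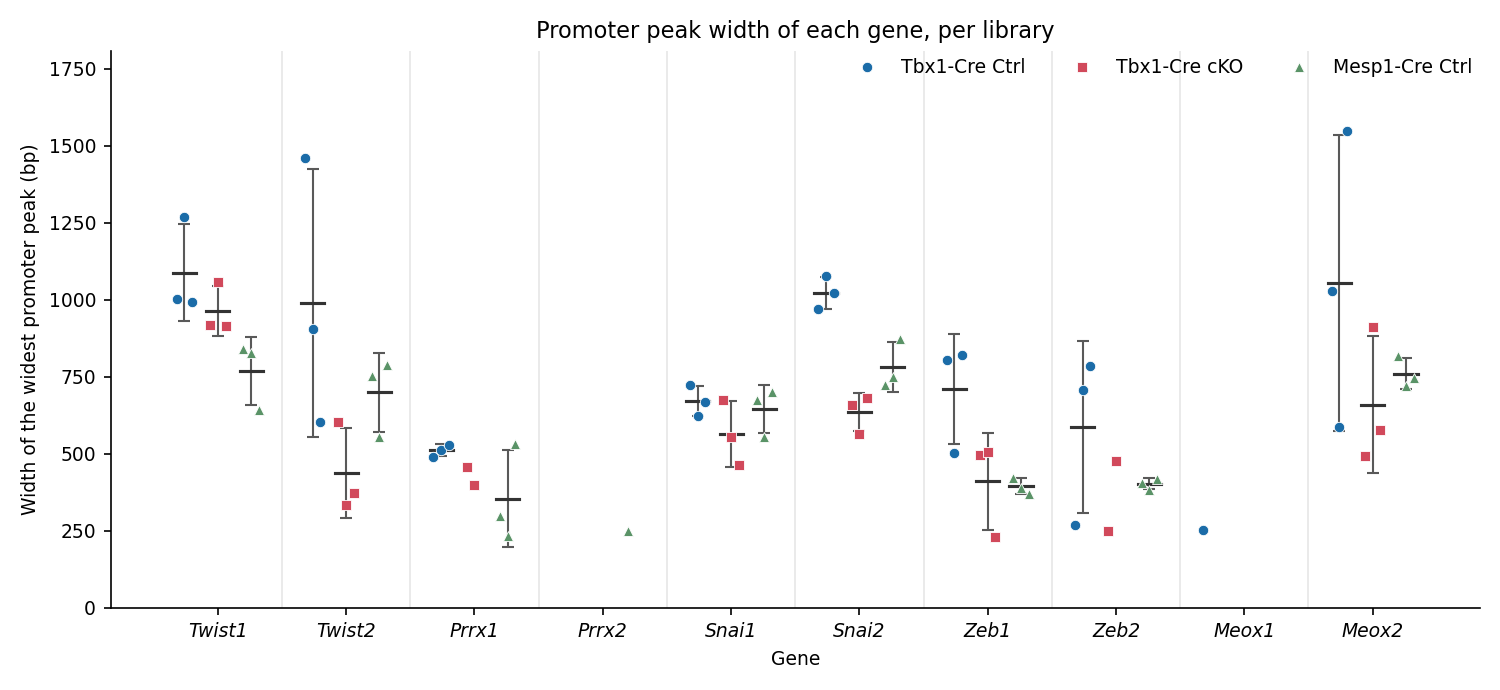
Width in bp of the widest promoter peak of each gene in each library, coloured by group, with the mean and SD over 3 libraries as bars where all 3 hold a peak and no point where none is listed. At Snai2 the 3 Tbx1-Cre Ctrl libraries lie between 970 and 1076 bp, above all cKO and Mesp1-Cre Ctrl libraries.

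The width of a peak is a graded measure that the lists allow, and it was compared at the promoters first. Only the widest peak of a library was measured, so a promoter listed as 2 peaks can score narrower. Replicate 2 of cKO had 2 promoter peaks at Snai2 and at Twist2. Every other library of the Tbx1-Cre groups had 1 at these genes. What the split adds to the differences was not tested. At Snai2, which encodes the repressor Slug, the widest promoter peak measured 970, 1076 and 1021 bp in Tbx1-Cre Ctrl, 658, 565 and 682 bp in cKO, with 724, 748 and 873 bp in Mesp1-Cre Ctrl. All 3 groups were separate, with the widest peaks in Tbx1-Cre Ctrl and the narrowest in cKO. The cKO mean lay 387 bp below Tbx1-Cre Ctrl (635 ± 61.8 against 1022 ± 53.0 bp, SD, n = 3; two-sided exact permutation p = 0.1, no lower p being possible with 3 against 3, and 0.256 after Benjamini-Hochberg adjustment over all genes tested).

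Of the 6 members with a promoter peak in all libraries of both Tbx1-Cre groups, all 6 had a lower mean width in cKO, and 1, Snai2, had groups that did not overlap, while 39.0% of 11084 genes did. Twist2 came close: its promoter peak measured 1459, 905 and 603 bp in Tbx1-Cre Ctrl and 604, 334 and 373 bp in cKO, so the groups overlapped by 1 library. For Snai1, the values of 723, 624 and 667 bp in Tbx1-Cre Ctrl and 676, 553 and 465 bp in cKO overlapped as well.

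Against Tbx1-Cre Ctrl, the Mesp1-Cre Ctrl promoter peaks were narrower without overlap at 3 of 8 members tested, Twist1, Snai2 and Zeb1, and 17.5% of 11941 genes were so. Zeb1 measured 805, 503 and 822 bp in Tbx1-Cre Ctrl and 423, 389 and 371 bp in Mesp1-Cre Ctrl. These widest peaks came from different promoter regions of Zeb1. In the region of the most upstream TSS, which gave all 3 Mesp1-Cre Ctrl values, Tbx1-Cre Ctrl had 549, 305 and 822 bp. The groups overlapped there. A neighbouring region had 805, 503 and 574 bp in Tbx1-Cre Ctrl, with 219 bp, no peak and 227 bp in Mesp1-Cre Ctrl. The order differed at Twist1. Its promoter peak measured 1002, 1269 and 994 bp in Tbx1-Cre Ctrl, 917, 1058 and 915 bp in cKO, with 839, 826 and 643 bp in Mesp1-Cre Ctrl. Here the cKO libraries lay above every Mesp1-Cre Ctrl library, by 194 bp in the mean (exact permutation p = 0.1, adjusted p = 0.653), in the direction that 0.687% of 10923 genes took. The cKO mean was below that of Mesp1-Cre Ctrl at 4 of 6 members, and 1 of them, Snai2, had narrower cKO peaks without overlap, as 14.6% of those genes had.

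Distal peaks at the loci were fewer in cKO than in Tbx1-Cre Ctrl. Summed over the 10 loci, Tbx1-Cre Ctrl libraries held 55, 32 and 43 distal peaks, cKO libraries 21, 18 and 13, and Mesp1-Cre Ctrl libraries 38, 20 and 28. No cKO library reached the lowest Tbx1-Cre Ctrl library, and the Mesp1-Cre Ctrl libraries overlapped both. The mean was 43.3 ± 11.5 for Tbx1-Cre Ctrl, 17.3 ± 4.04 for cKO and 28.7 ± 9.02 for Mesp1-Cre Ctrl (SD, n = 3).

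Relative to the length of the lists the groups overlapped. Per 10000 distal peaks of its own list, a Tbx1-Cre Ctrl library had 14.2 ± 2.77 distal peaks at the 10 loci, a cKO library 16.5 ± 2.03 and a Mesp1-Cre Ctrl library 16.2 ± 1.70 (SD, n = 3). With each list cut to an equal number of its widest peaks, the summed difference between cKO and Tbx1-Cre Ctrl shrank to -0.667 peaks, and none of the loci had groups apart.

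**Figure D2:**
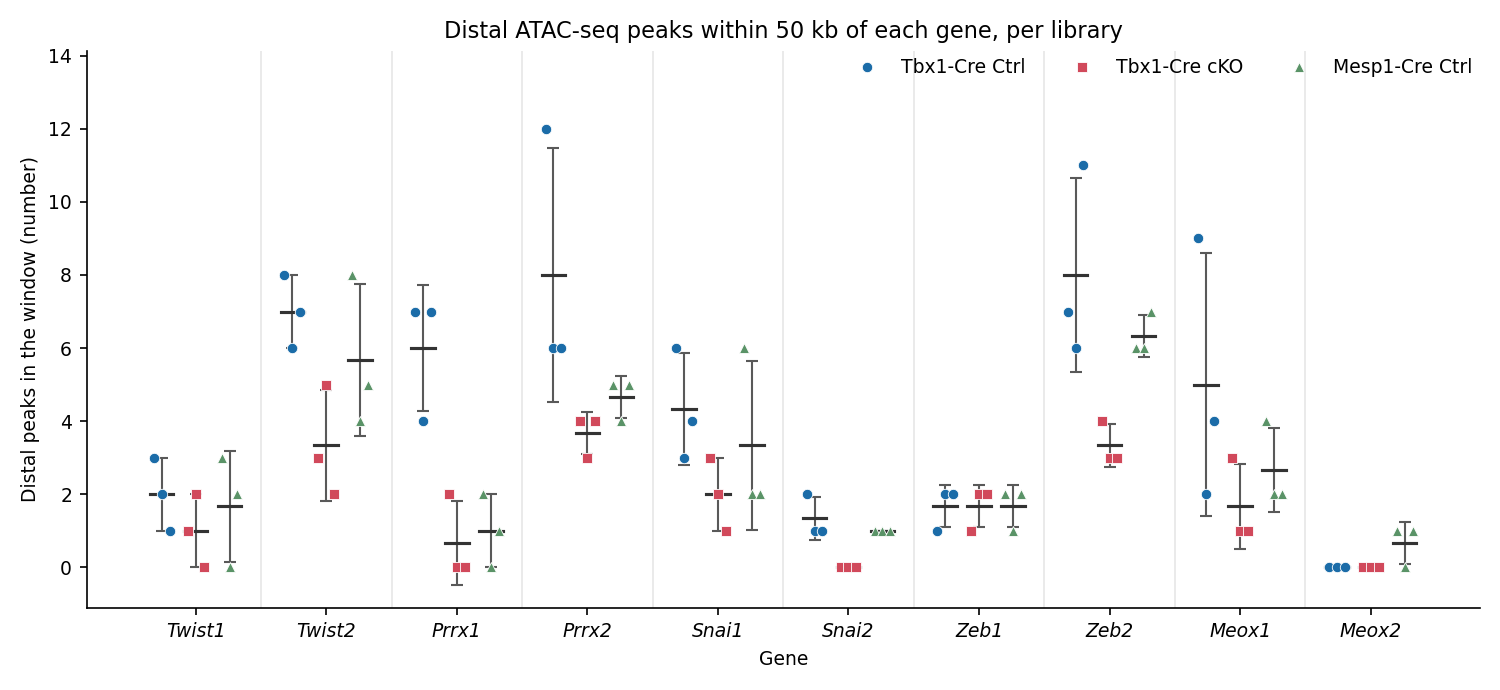
Number of distal peaks in the window of each gene in each library, coloured by group, with the mean and SD over 3 libraries as bars. The cKO libraries lie below all Tbx1-Cre Ctrl libraries at Twist2, Prrx1, Prrx2, Snai2 and Zeb2, and the groups coincide at Zeb1.

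Locus by locus, the distal counts of cKO lay wholly below those of Tbx1-Cre Ctrl at 5 of the 10 members, Twist2, Prrx1, Prrx2, Snai2 and Zeb2, and wholly above at 0. Over the 18473 genes with any distal peak, 25.3% were apart in the first direction and 0.0487% in the second. The share depends on how many distal peaks a gene has, being 7.39% below a Tbx1-Cre Ctrl mean of 2 peaks, 33.8% from 2 to below 5 and 64.9% from 5 upwards. Prrx1, Prrx2, Twist2 and Zeb2 belong to the last class with Meox1, whose groups overlapped, and Snai2 to the first. The mean was lower in cKO at 8 members, as at 88.2% of all these genes, and the median difference was -2.83 peaks for the members and -1.0 for all of them. In the same classes of Tbx1-Cre Ctrl mean, the median over genes was -0.333, -1.67 and -4.0 peaks. The median of the members is therefore not read as a larger loss. With 3 libraries against 3, the exact permutation test cannot give less than p = 0.1, which each of the 5 loci had, and the adjusted p over all genes was 0.395. Rescaling the counts to the mean list length kept the groups apart at Prrx1 and Snai2 only. At Snai2 this was fixed in advance, since cKO counts of 0 stay 0 under any scaling. The scaling used all peaks of a list, at 52.3% of the Tbx1-Cre Ctrl mean in cKO, while distal peaks stood at 35.6%.

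**Figure D3:**
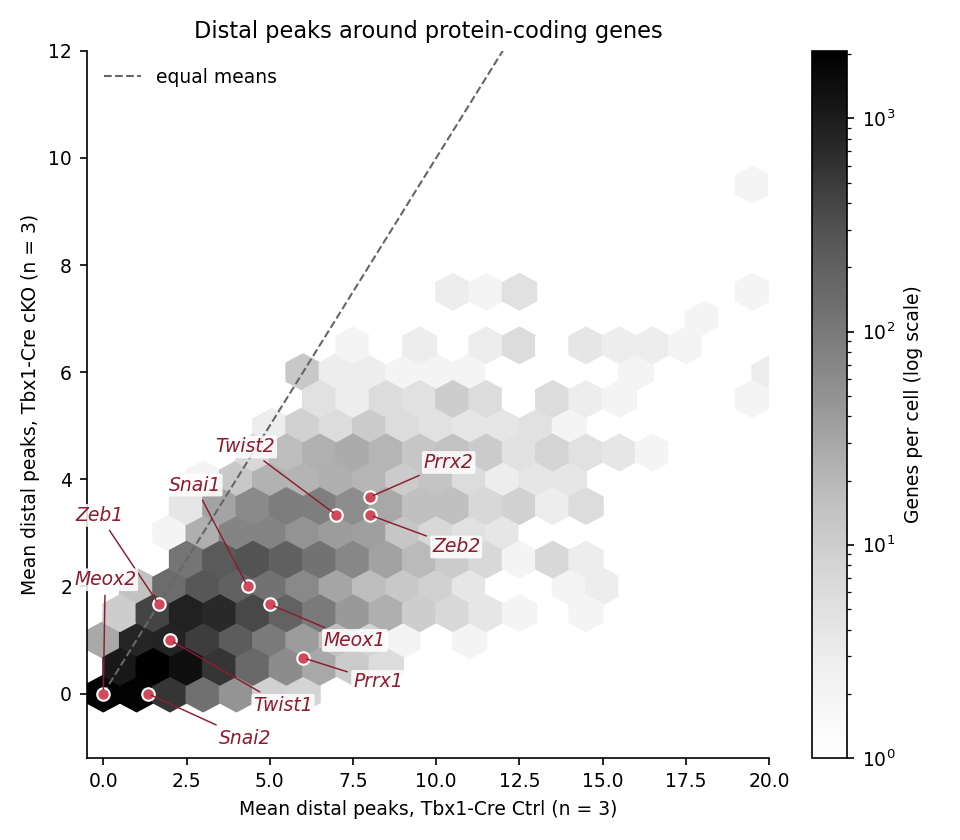
Mean number of distal peaks in Tbx1-Cre Ctrl (x axis) against Tbx1-Cre cKO (y axis), n = 3 each, for genes with a distal peak, with grey cells shaded by the number of genes on a log scale and the members as red points. Members lie on or below the dashed line of equal means, like nearly all genes, and 19 genes lie outside the axes.

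The order of the group means was Tbx1-Cre Ctrl, Mesp1-Cre Ctrl, cKO at 8 of the 10 members, and at 40.8% of genes with a distal peak. That share was not computed by number of distal peaks, on which it may depend. A lower mean in Mesp1-Cre Ctrl than in Tbx1-Cre Ctrl was had by 57.2% of genes with a Tbx1-Cre Ctrl mean under 2. Of those with 5 or more, 95.9% had it, so nothing particular to the members is read from the order. Neighbours in this order mostly overlapped. Between Tbx1-Cre Ctrl and Mesp1-Cre Ctrl, 2 members, Prrx1 and Prrx2, had groups apart, with fewer peaks in Mesp1-Cre Ctrl, against 11.1% of genes and 27.8% of those with a Tbx1-Cre Ctrl mean of 5 or more, to which both belong. The reverse was seen for 0 members and 0.395% of genes. Between cKO and Mesp1-Cre Ctrl, Snai2 and Zeb2 were apart with fewer peaks in cKO, against 6.26% of genes, with 19.7% in the class of Zeb2 (a Mesp1-Cre Ctrl mean of 5 or more) and 3.08% in that of Snai2 (below 2), and 0 members had more, against 0.276%. The 3 comparisons share libraries pair by pair and are not independent of each other. Every one of these loci had an exact permutation p of 0.1, with an adjusted p of 0.872 for the first pair of groups and 1.0 for the second.

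Prrx1 was the 1 locus apart in both comparisons with Tbx1-Cre Ctrl that stayed so after rescaling to list length. It had 7, 4 and 7 distal peaks in Tbx1-Cre Ctrl, 2, 0 and 0 in cKO, with 2, 0 and 1 in Mesp1-Cre Ctrl. The Tbx1-Cre Ctrl libraries stood apart from both other groups, which overlapped each other. Its mean fell from 6.0 ± 1.73 to 0.667 ± 1.15 in cKO and was 1.0 ± 1.0 in Mesp1-Cre Ctrl (SD, n = 3). Some of these distal peaks lay between 1 and 2 kb from a Prrx1 TSS. With promoters of 2 kb, the difference from Tbx1-Cre Ctrl shrank from -5.33 to -2.67 peaks in cKO. In Mesp1-Cre Ctrl it shrank from -5.0 to -2.67 peaks, and both groups stayed apart from Tbx1-Cre Ctrl. The related Prrx2 had 12, 6 and 6 distal peaks in Tbx1-Cre Ctrl, 4, 3 and 4 in cKO, with 5, 4 and 5 in Mesp1-Cre Ctrl. The groups kept the same order, but Tbx1-Cre Ctrl replicate 1 held as many as the other two libraries of its group together. Without it, the cKO and Mesp1-Cre Ctrl counts still lay below Tbx1-Cre Ctrl at Prrx2. The window of Prrx2 holds 4 other coding genes, among them Ptges, and some of the distal regions in it lay in introns of Ptges.

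Zeb2, a repressor needed for neural crest emigration, had 7, 6 and 11 distal peaks in Tbx1-Cre Ctrl, 4, 3 and 3 in cKO, with 6, 6 and 7 in Mesp1-Cre Ctrl. Both control groups lay above cKO and overlapped each other. Its paralogue Zeb1 had 1, 2 and 2 distal peaks in Tbx1-Cre Ctrl, 1, 2 and 2 in cKO, with 2, 1 and 2 in Mesp1-Cre Ctrl. The 3 groups of Zeb1 thus had equal means of 1.67 ± 0.577, in the longest window of all members, 283.6 kb. After merging, only 1 distal region of Zeb1, 227.9 kb from the TSS, had a Tbx1-Cre Ctrl or cKO peak. The equal means are therefore not read as several unchanged sites.

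Snai2 had few distal peaks: 2, 1 and 1 in Tbx1-Cre Ctrl, 0 in every cKO library, and 1 in every Mesp1-Cre Ctrl library. Both control groups were above cKO without overlap, by 1.33 peaks in the mean for Tbx1-Cre Ctrl and 1.0 for Mesp1-Cre Ctrl. Snai1 had 6, 3 and 4 distal peaks in Tbx1-Cre Ctrl, 3, 2 and 1 in cKO, with 6, 2 and 2 in Mesp1-Cre Ctrl. Its groups met at 3 peaks, and the exact permutation p for cKO against Tbx1-Cre Ctrl was 0.2. Its window also holds Spata2 and Rnf114.

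Twist2 had 8, 6 and 7 distal peaks in Tbx1-Cre Ctrl, 3, 5 and 2 in cKO, with 8, 4 and 5 in Mesp1-Cre Ctrl. The Tbx1-Cre groups were apart and Mesp1-Cre Ctrl overlapped both. Twist1, with 3, 2 and 1 distal peaks in Tbx1-Cre Ctrl, 1, 2 and 0 in cKO, with 3, 0 and 2 in Mesp1-Cre Ctrl, showed no separation of any pair of groups.

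Meox1 had 9, 2 and 4 distal peaks in Tbx1-Cre Ctrl, 3, 1 and 1 in cKO, with 4, 2 and 2 in Mesp1-Cre Ctrl. The single high library was Tbx1-Cre Ctrl replicate 1, and all 3 groups overlapped. Meox2 had no distal peak in any of the 6 Tbx1-Cre libraries and 1, 0 and 1 in Mesp1-Cre Ctrl, although its promoter peak was present in all 9 libraries. Both Mesp1-Cre peaks at Meox2 belonged to 1 intronic region 18.3 kb from the TSS.

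Levels were compared between genes per length of window. In Tbx1-Cre Ctrl, Prrx2 was highest with 5.47 ± 2.37 distal peaks per 100 kb, followed by Twist2 with 4.78 ± 0.682, Meox1 with 4.28 ± 3.09, Snai1 with 4.14 ± 1.46, Prrx1 with 3.56 ± 1.03 and Zeb2 with 3.42 ± 1.13 (SD, n = 3). Neighbours in this order differed by less than their spread. Twist1 at 1.96, Snai2 at 1.29, Zeb1 at 0.588 and Meox2 at 0 peaks per 100 kb came last, around or below the median of 1.46 over genes with a distal peak. In cKO the density at Prrx1 was 0.395 ± 0.685 peaks per 100 kb, next to Zeb1, while Prrx2 and Twist2 led with 2.51 ± 0.395 and 2.27 ± 1.04, and the median over all such genes was 0.549.

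The peaks of the 9 libraries merged into 100 regions at the 10 loci, of which 13 were promoter regions, 12 lay near a TSS of another gene and 75 were distal. Of the distal regions, 39 were intergenic, 32 lay in an intron and 4 in an exon. A peak in all 9 libraries was found for 6 of them (8.0%, against 5.99% of 55122 distal regions in the whole series), and a peak in 1 library only for 24 (32.0% against 37.8%). Merging can join neighbouring peaks, so regions and peaks are counted apart.

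Regions that all 3 Tbx1-Cre Ctrl libraries shared were then followed into the other groups. There were 24 such distal regions. No cKO library had a peak in 6 of them (25.0%, against 27.8% of 15794 regions), and all 3 cKO libraries had one in 10 (41.7% against 27.4%). No Mesp1-Cre library had a peak in 6 (25.0% against 24.3%). All 10 regions with a peak in every cKO library were also present in all 3 Tbx1-Cre Ctrl libraries, as were 4324 of 4502 such regions in the series. Of 11 regions with a peak in all 6 control libraries, 3 had no cKO peak (27.3%, against 8.72% of 6021), and these were the Snai2 and the pair of Zeb2 regions printed above. None of the 6 regions without a cKO peak remained in such a pattern when each list was cut to an equal number of its widest peaks. That cut kept 19772 peaks per list. It dropped every Tbx1-Cre Ctrl peak narrower than the median of its list (464, 504 and 514 bp). Each of the 6 regions held such a peak, so their loss was fixed by the Tbx1-Cre Ctrl widths and does not bear on cKO. The 6 became 14 without Tbx1-Cre Ctrl replicate 2 and 10 without cKO replicate 1.

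**Figure D4:**
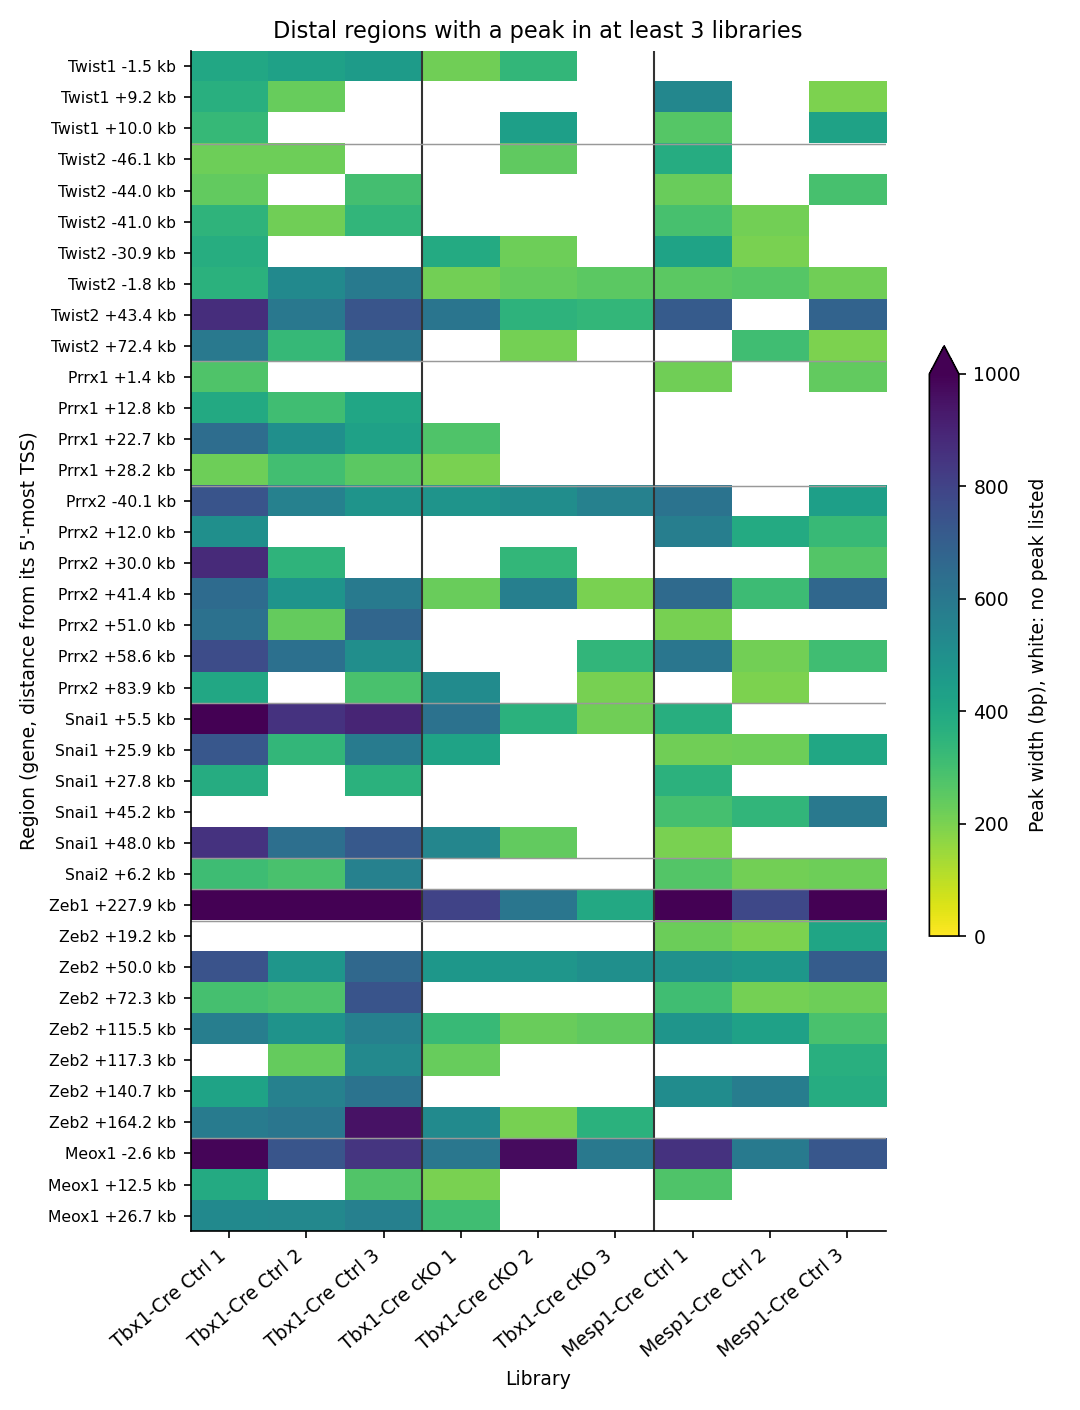
Peak width in bp (colour, capped at 1000 bp, white where no peak is listed) in each library (columns) for the 38 distal regions with a peak in at least 3 libraries (rows, named by gene and distance in kb from its most upstream TSS). The cKO columns are the emptiest, 3 of the 4 Prrx1 rows are filled in all Tbx1-Cre Ctrl and in no Mesp1-Cre Ctrl library, and single rows of Twist2, Prrx2, Zeb1 and Meox1 and 2 rows of Zeb2 are filled throughout.

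At Prrx1, 3 regions inside the gene had a peak in all 3 Tbx1-Cre Ctrl libraries, and none of the 3 had a Mesp1-Cre peak. The region 12.8 kb from the TSS (chr1:165230821-165231263, intron) had peaks of 394, 307 and 410 bp in Tbx1-Cre Ctrl and none in the other 6 libraries. The nearest cKO peak lay 9608 bp away and the nearest Mesp1-Cre peak 11007 bp away. The region 22.7 kb from the TSS (chr1:165220799-165221460, intron, 1774 bp from the nearest Prrx1 TSS) had peaks of 641, 501 and 429 bp in Tbx1-Cre Ctrl, 277 bp in cKO replicate 1 and none elsewhere. The last of them, named after its values were seen, lay 28.2 kb from the TSS in an intron and had peaks of 222, 301 and 252 bp in Tbx1-Cre Ctrl and 203 bp in cKO replicate 1. Among the 24 regions, the one at 12.8 kb was the only one without a peak in both cKO and Mesp1-Cre Ctrl, a pattern that 13.4% of the 15794 regions of the series had.

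At Snai2, the intergenic region 6.155 kb from the TSS (chr16:14711800-14712400) had peaks of 309, 286 and 562 bp in Tbx1-Cre Ctrl and 266, 213 and 220 bp in Mesp1-Cre Ctrl. No cKO library listed a peak there, and the nearest cKO peak, 5533 bp away, was at the promoter. Apart from the promoter, it was the only merged region of Snai2 with a peak in more than 1 library.

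**Figure D5:**
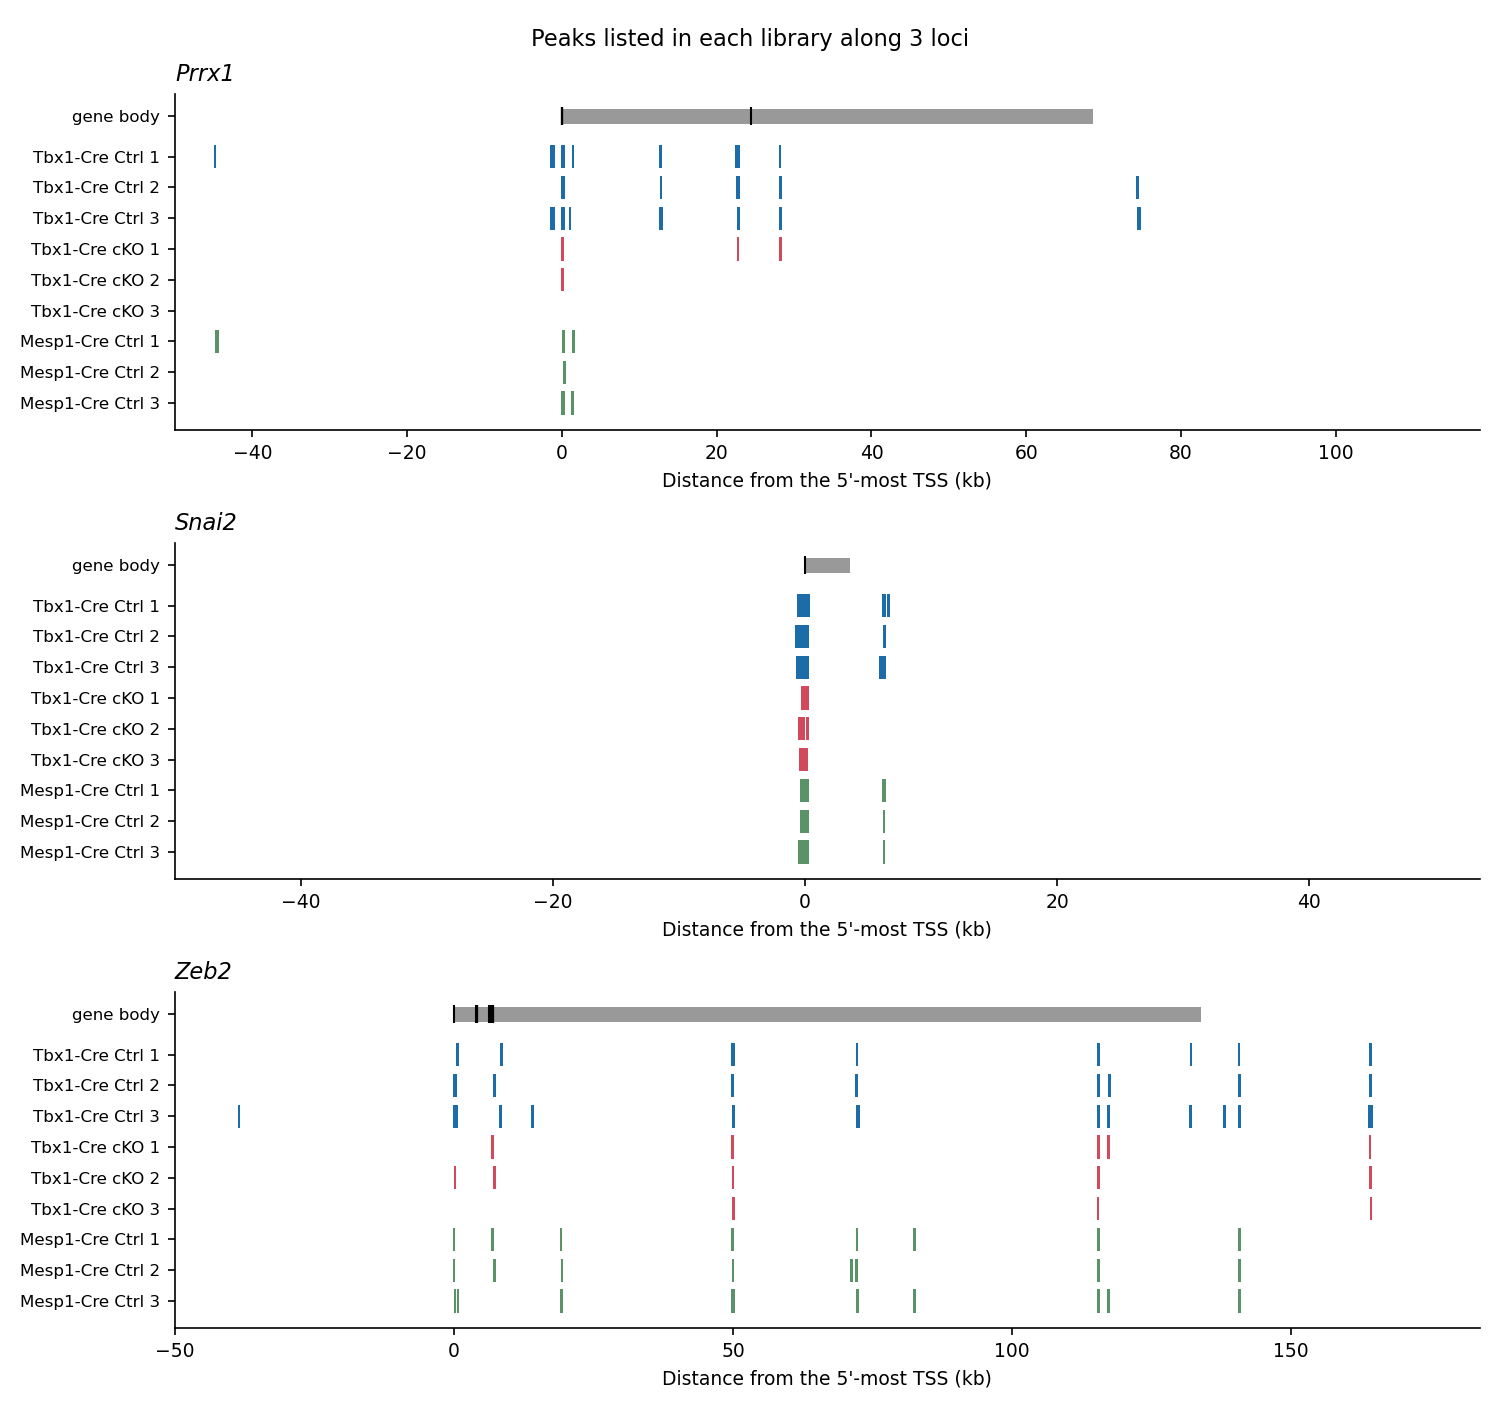
Peaks of each library (rows, coloured by group) along the windows of Prrx1, Snai2 and Zeb2, with distance from the most upstream TSS in kb on the x axis, the gene body in grey and annotated TSS as black ticks, and narrow peaks drawn at a minimum width. Prrx1 has few peaks beyond its promoter outside Tbx1-Cre Ctrl, Snai2 has no cKO peak at 6.155 kb, and Zeb2 holds a shared region at 115.5 kb between regions absent from cKO.

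At Zeb2, regions with different patterns stood in 1 window. The intronic region 72.3 kb from the TSS (chr2:44900202-44900963) had peaks of 295, 279 and 740 bp in Tbx1-Cre Ctrl, 305, 208 and 221 bp in Mesp1-Cre Ctrl and none in cKO. The intergenic region 140.7 kb from the TSS, beyond the end of the gene (chr2:44831876-44832504), had peaks of 420, 560 and 619 bp in Tbx1-Cre Ctrl, 515, 575 and 382 bp in Mesp1-Cre Ctrl and none in cKO, the nearest cKO peak being 22806 bp away. These regions were thus listed in all 6 control libraries and in none of cKO.

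In contrast, the Zeb2 region 164.2 kb from the TSS (chr2:44808210-44809159, intergenic, with Gtdc1 as the gene of the nearest TSS) had peaks of 583, 608 and 950 bp in Tbx1-Cre Ctrl and 521, 205 and 361 bp in cKO, with none in Mesp1-Cre Ctrl. The intronic region at 19.2 kb (chr2:44953456-44953906) had peaks of 225, 199 and 412 bp in Mesp1-Cre Ctrl and none in the 6 Tbx1-Cre libraries.

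A further region of the Mesp1-Cre libraries lay 45.2 kb from the TSS of Snai1 (chr2:167408594-167409190), in an intron of the annotated gene Gm11476, with peaks of 295, 342 and 597 bp there and none in the 6 Tbx1-Cre libraries. With the Zeb2 region at 19.2 kb it made 2 of the 14 regions with a peak in all 3 Mesp1-Cre Ctrl libraries that had none in Tbx1-Cre Ctrl (14.3%, against 6.46% of 7929). The nearest Tbx1-Cre Ctrl peak to the Snai1 region was 2121 bp away.

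Further regions of the same kinds lay at the other members. A Twist2 region 40978 bp upstream of the TSS (chr1:93656842-93657278, intergenic) had peaks of 351, 215 and 342 bp in Tbx1-Cre Ctrl, none in cKO, with 292 and 214 bp in Mesp1-Cre Ctrl replicates 1 and 2. At Twist1, a region 1516 bp upstream of the TSS (chr12:34640775-34641266) had peaks of 402, 428 and 451 bp in Tbx1-Cre Ctrl, 218 and 337 bp in cKO replicates 1 and 2, and none in Mesp1-Cre Ctrl, whose nearest peak lay 690 bp away. The Prrx2 region 51.0 kb from its TSS (chr2:30741163-30741853, intergenic) had peaks of 625, 238 and 670 bp in Tbx1-Cre Ctrl, none in cKO, with 205 bp in Mesp1-Cre Ctrl replicate 1. The Meox1 region 26.7 kb from the TSS (chr11:101728697-101729286, intergenic) had peaks of 524, 535 and 564 bp in Tbx1-Cre Ctrl, 307 bp in cKO replicate 1 and none in Mesp1-Cre Ctrl.

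Width was compared in the regions found in all 9 libraries, as that of the widest peak of each library in the region. Of the 6, all 6 had a lower mean width in cKO than in Tbx1-Cre Ctrl, and 3 had groups that did not overlap, against 51.0% of 3301 such regions in the series. The median difference was -249 bp for the 6 and -219 bp for all. Against Mesp1-Cre Ctrl, 2 of the 6 were apart, with Mesp1-Cre Ctrl the narrower, where 30.7% of the 3301 were.

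The widest was the intergenic region 227.9 kb from the most upstream TSS of Zeb1 (chr18:5818830-5820699), with 1627, 1164 and 1198 bp in Tbx1-Cre Ctrl, 800, 606 and 396 bp in cKO, with 1206, 783 and 1116 bp in Mesp1-Cre Ctrl. The cKO widths lay below all Tbx1-Cre Ctrl widths and, but for 1 library, below those of Mesp1-Cre Ctrl, at a gene whose mean number of distal peaks was equal in the 3 groups. At Twist2, the region 1803 bp upstream of the TSS (chr1:93695939-93696531) had 360, 525 and 586 bp in Tbx1-Cre Ctrl, 213, 235 and 253 bp in cKO, with 250, 265 and 216 bp in Mesp1-Cre Ctrl. Both other groups lay below Tbx1-Cre Ctrl.

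At Prrx2, the intronic region 41.4 kb from the TSS (chr2:30731536-30732317) had 650, 482 and 587 bp in Tbx1-Cre Ctrl, 228, 567 and 200 bp in cKO, with 655, 315 and 667 bp in Mesp1-Cre Ctrl, and the groups overlapped. At Meox1, the region 2578 bp upstream of the TSS (chr11:101757757-101758774, intergenic) had 986, 736 and 847 bp in Tbx1-Cre Ctrl, 604, 971 and 596 bp in cKO, with 853, 590 and 729 bp in Mesp1-Cre Ctrl. It stood in every library at a gene whose promoter peak was listed in 1 library only, and its widths did not tell the groups apart.

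Lists of partner and target genes gave counts of the same kind. Of the 7 E-protein and Id genes, which encode dimer partners of Twist proteins and their inhibitors, 4 had fewer distal peaks in cKO than in Tbx1-Cre Ctrl without overlap and 0 had more. Tcf4 had 8, 8 and 8 in Tbx1-Cre Ctrl and 2, 1 and 2 in cKO. Of 12 mesenchymal effector genes, such as Cdh2, Fn1 and Sparc, 6 were lower and 0 higher. Of 13 epithelial genes, which Snai and Zeb proteins repress or which oppose EMT, 3 were lower, namely Ovol2 and the neighbours Cldn3 and Cldn4 whose windows share peaks, and 0 were higher. Cdh1 had 6, 2 and 3 distal peaks in Tbx1-Cre Ctrl and 2, 1 and 0 in cKO, so its groups overlapped. Of 7 somite and sclerotome genes, 6 were lower in cKO, and 5 of them were also lower in Mesp1-Cre Ctrl than in Tbx1-Cre Ctrl. The back, which holds somites, was labelled for the Tbx1-Cre groups only, and its part in the Mesp1-Cre counts cannot be told apart from the Cre line. Over all genes these shares were 25.3% for cKO and 11.1% for Mesp1-Cre Ctrl, but they were 64.9% and 27.8% for genes with a Tbx1-Cre Ctrl mean of 5 or more distal peaks, such as Tcf4, so nothing particular to the lists is read from their counts.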

How the data were processed

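ATAC-seq peak lists of 9 libraries, 3 per group by the labels, were analysed. The deposited files give chromosome, start and end of each peak and no score, so the values are positions in bp. The authors aligned reads to mm9 with Bowtie2 (2.3.4.3 per the labels), kept unique concordant pairs, removed duplicates and mitochondrial reads, and ran MACS2 (2.1.2.179 per the labels) on every library by itself. Read depth was not used here, and the number of peaks in each list stands in for it. Lists of unequal length give unequal counts, so counts were also rescaled and compared at equal list length. The read count model of the study could not be applied to intervals.

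NCBIM37 (mm9) sequence and its GENCODE annotation were used. Chromosome 1 is 197195432 bp there and its last peak ended at 197068332, and peaks ran at most 247 bp past a chromosome end. Intervals were read as BED. The shortest peak was 199 bp in the Mesp1-Cre lists and 200 bp in the others, a difference of 1 base in how starts may be counted. Peaks were counted in windows of 50 kb around each of 22367 protein-coding genes. Groups were compared by exact two-sided permutation of libraries, with Benjamini-Hochberg adjustment over all genes tested, in Python 3.11.15 with numpy 2.4.6 and pandas 2.3.3. Separate groups means that the values do not overlap. Nothing states that libraries of a group came from separate litters, so p-values measure the spread between libraries. The pooled embryos make each library a mixture. Regions were merged over the 9 lists where peaks overlapped. Sums over the members were described without a test. Functions were tested on simulated data.

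The members, lists and rules were chosen with earlier results of these data known. Regions were named where all 3 Tbx1-Cre Ctrl and no cKO library had a peak (at most 2 per locus), as the widest in all 9 libraries per locus, as present in one control group only (at most 5 each way), or as present in cKO only, which gave none. Foxf1, Tfap2a, Tfap2b and Uncx were matched by older symbols, and the marker Sox1 was not analysed here. Results that need items withheld for evaluation are not reported here. Alternatives were the window, promoter distance, overlap rule, list length, scaling, pairing and leaving out each library.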

Additional observations from a re-analysis of the deposited data

How the results depend on the processing

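Peak lists without read depth limit these counts, since a missing peak is not a measured absence of signal, and 3 libraries a group allow no p under 0.1. The alternatives were set for the window, promoter distance, overlap, list length, scaling, pairing and single libraries. The cause of each change was not tested.

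Between cKO and Tbx1-Cre Ctrl, the summed distal difference of -26.0 peaks became -16.0 with windows of 10 kb, -37.0 with 100 kb, -0.667 when each list kept equally many of its widest peaks (equal numbers) and -7.40 with counts rescaled to the mean list length, and the 5 loci with fewer peaks in cKO became 3, 5, 0 and 2. Leaving out 1 library gave sums of -31.7 to -20.2 and 5 to 7 loci. Between Mesp1-Cre Ctrl and Tbx1-Cre Ctrl, the sum of -14.7 became -9.0 with 10 kb, -22.7 with 100 kb, -9.33 with promoters of 2 kb, -2.33 with equal numbers and -1.99 when rescaled. The 2 loci became 1, Prrx1, with 10 kb, with 100 kb, with any overlap, with the widest 75% of each list and when rescaled, and 0 with equal numbers. Leaving out 1 library gave sums of -20.3 to -8.83 and 2 to 4 loci, 4 of them without Mesp1-Cre Ctrl replicate 1. Between cKO and Mesp1-Cre Ctrl, the sum of -11.3 became -7.0 with 10 kb and with the widest 75%, -5.41 when rescaled, and reversed to 1.67 with equal numbers, and the 2 loci became 0 with equal numbers, 0 with the widest 75% and 1, Snai2, when rescaled. In both comparisons with cKO, Snai2 could not change under rescaling, as its cKO counts of 0 stay 0. Leaving out 1 library gave sums of -15.7 to -6.67 and 2 to 4 loci, 4 of them without Mesp1-Cre Ctrl replicate 2. The 6 regions with all Tbx1-Cre Ctrl and no cKO peaks became 0 with equal numbers and 7 to 14 with 1 library left out, 14 without Tbx1-Cre Ctrl replicate 2 and 10 without cKO replicate 1. With equal numbers, the loss of these 6 regions was fixed by their Tbx1-Cre Ctrl widths and does not bear on cKO.

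Among single loci, 19 values reversed and 401 did not. In cKO minus Tbx1-Cre Ctrl these were Twist1 (0.667) and Meox1 (0.333) with equal numbers. In Mesp1-Cre Ctrl minus Tbx1-Cre Ctrl they were Twist1 with promoters of 2 kb (0.667), Twist1 (0.667) and Meox1 (0.333) with equal numbers, Twist1 (0.0895), Twist2 (0.683), Snai1 (0.104), Snai2 (0.123) and Zeb2 (1.05) when rescaled, and Twist1 without 1 library, in a range of -1.0 to 0.5. In cKO minus Mesp1-Cre Ctrl they were Snai1 and Meox1 (0.333 each) with 10 kb, Twist2 (0.667), Prrx2 (0.333) and Snai1 (1.0) with equal numbers, Prrx2 (0.299) when rescaled, and Prrx1 without 1 library, in a range of -1.0 to 0.167.

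The replicate numbers did not pair the libraries, since deviations of same-numbered libraries correlated at -0.0553 to 0.214 over genes, with 4 of 9 pairs over 0.1 and 4 of 9 best with their own number. Under a replicate block, the difference at Prrx1 between cKO and Tbx1-Cre Ctrl was -5.33 peaks, and the exact sign-flip p could not go below 0.25, a value that 13 of 30 tests had.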

Other observations

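The base composition of the promoters, read over 1001 bp around the most upstream TSS, was compared with the presence of a promoter peak. The observed over expected ratio of CpG was 0.2 at Prrx2 and 0.416 at Meox1, the genes with a promoter peak in 1 library each. The Prrx2 peak, however, lay at another TSS, 10.4 kb downstream of the TSS read here. The ratio lay between 0.699 and 0.947 at Twist1, Twist2, Snai1, Snai2 and Zeb1, which had a peak in all 9 libraries, and was 0.707 at Zeb2. At Zeb2, the region of the TSS read here had a peak in 7 libraries. Meox2 stood apart with a ratio of 0.444 and a promoter peak in every library, and Prrx1 had 0.47 and a peak in 8. Over all genes, the median ratio was 0.747 for 10870 genes with a promoter peak in 9 libraries and 0.179 for 7603 genes with none.

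Zeb2 had the most distal regions of the 10 genes, 14. Among 497 genes with at least as many distal peaks as Zeb2 in the mean, the number per 10000 listed peaks followed that of Zeb2 most closely at Lmo1 (Pearson r = 0.841), Ccdc34 (r = 0.732) and Ccnjl (r = 0.719), over the same 9 libraries. These points share library and depth, and the values are given as a description.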
